A study of Mus musculus with 4 samples.

Results

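The transcripts described are those of the MyoD family (Myod1, Myog, Myf5 and Myf6), the Mef2 family (Mef2a, Mef2c and Mef2d) and the Id proteins (Id1, Id2 and Id3) in mouse skeletal muscle. Every probe set was taken whose only gene symbol in the platform's gene table was one of these names, which gave 14 of the 12422 probe sets that are not controls. All 10 genes had at least 1 probe set, out of 8251 genes with a probe set of their own. The MyoD family had 4 and the Id proteins 3, 1 for each gene, and the Mef2 family had 7, of which Mef2c had 4, Mef2a 2 and Mef2d 1. Total RNA was measured on 4 expression arrays, 2 with the code J in their titles (replicates 1a and 1c) and 2 with the code NJ (replicates 1a and 1d), all marked 0 h and Ctr. The codes are not spelled out in the labels and are used as given, and the sources used here give no strain, age, treatment or number of animals per array. The series title names the neuromuscular junction, where motor nerve and muscle fibre meet, and its design sets J against NJ.

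Proteins of the MyoD family are basic helix-loop-helix transcription factors that turn on the muscle gene programme. They bind DNA at E-boxes as dimers with E proteins such as those encoded by Tcf3 and Tcf12. Mef2 proteins bind a separate AT-rich site and act together with the MyoD family, and class II histone deacetylases hold them back. Id proteins carry a helix-loop-helix but no basic region, so they capture E proteins in dimers that cannot bind DNA. In adult muscle, nerve activity is known to keep Myog low, and loss of the nerve raises it together with the genes of the acetylcholine receptor.

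The promoters of Myog, Mef2a and Id2, each from a different family, are shown because each window holds a match to the E-box or the Mef2 site. These are the motifs through which the families act on DNA, but binding was not measured here. The Myog window is known as a target of the MyoD and Mef2 proteins. Sequences are from RefSeq on the GRCm38.p6 build and run from 250 bases before to 50 bases after the annotated start, 5′ to 3′ on the strand of the gene, with motif matches in capitals. The Myog window lies at chr1:134289754-134290053 on the plus strand, the Mef2a window at chr7:67372809-67373108 on the minus strand and the Id2 window at chr12:25096043-25096342 on the minus strand.
Myog: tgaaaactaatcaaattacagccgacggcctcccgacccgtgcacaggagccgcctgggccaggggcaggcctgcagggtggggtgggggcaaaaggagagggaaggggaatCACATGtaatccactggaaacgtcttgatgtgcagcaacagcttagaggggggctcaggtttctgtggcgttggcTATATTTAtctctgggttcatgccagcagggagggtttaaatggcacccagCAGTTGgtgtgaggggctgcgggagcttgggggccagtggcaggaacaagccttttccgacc
Mef2a: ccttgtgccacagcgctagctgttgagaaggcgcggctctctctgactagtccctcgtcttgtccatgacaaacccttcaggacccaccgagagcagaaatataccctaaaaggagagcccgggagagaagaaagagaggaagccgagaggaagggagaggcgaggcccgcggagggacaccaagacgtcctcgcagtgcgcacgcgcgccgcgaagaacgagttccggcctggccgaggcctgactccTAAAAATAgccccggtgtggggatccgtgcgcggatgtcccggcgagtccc
Id2: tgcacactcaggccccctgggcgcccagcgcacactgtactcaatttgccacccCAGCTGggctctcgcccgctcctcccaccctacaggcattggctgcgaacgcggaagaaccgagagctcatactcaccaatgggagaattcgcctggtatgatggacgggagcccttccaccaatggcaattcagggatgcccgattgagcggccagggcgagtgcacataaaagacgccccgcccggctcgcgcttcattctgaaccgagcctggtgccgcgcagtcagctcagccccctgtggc

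The motifs searched were the E-box CANNTG and a core of the Mef2 site, which is TA, then 4 bases that are each A or T, then TA. Both motifs read the same on either strand, and they overlapped each other in none of the windows shown. The Myog window had E-boxes that begin at positions −138 and −12 from the start and a Mef2 core at −63. The Mef2a window had a Mef2 core at −1 and 0 E-boxes. The Id2 window had an E-box at −196 and 0 Mef2 cores. Of 32851 RefSeq promoter windows of the same length, 72.3% held an E-box and 9.32% a Mef2 core, so an E-box in a window is the usual case. RefSeq windows were matched for 7 of the 10 genes, 9 windows in all, of which 4 had an E-box and 3 a Mef2 core. A Mef2c window, not shown, had both motifs, with E-boxes at −234 and −100 and a Mef2 core at −145. Another Mef2c window had an E-box at −245, and the remaining windows not shown had no match.

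Values called signals are the deposited intensities, in arbitrary units on a linear scale. Each difference is the mean of J minus the mean of NJ in quantile-normalised log2(signal + 32), ± its standard error from limma (n = 2 arrays in each group). Limma was run over the 9317 probe sets whose mean was above the 25th percentile, and p-values were adjusted over all of them by Benjamini-Hochberg. Of the 14 probe sets, 12 from 9 genes were bright enough to be tested, while those of Myf5 and a dimmer one of Mef2a were not. The labels do not say whether each array had an animal of its own, and variation between arrays of the same group could be technical. Each limma standard error and p-value rests only in part on the arrays' own values for that probe set (2 residual degrees of freedom). The larger weight lies on a prior (7.40 degrees of freedom) drawn from tested probe sets of similar brightness. A standard error can thus be smaller or larger than the 4 arrays alone would give. In total RNA of a tissue, fewer cells of a type and less RNA per cell cannot be told apart.

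The deposited table gives full digits for both 1a arrays and 1 decimal for J 1c and NJ 1d. Differences are therefore also given within the full-digit pair (J 1a minus NJ 1a) and within the rounded pair (J 1c minus NJ 1d). Genes of the muscle fibre were bright on all 4 arrays. The summed signal of 8 fibre markers of 9 listed (Ckm and Acta1 among them) was 551361 on J 1a and 160278 on J 1c, against 444331 on NJ 1a and 391410 on NJ 1d. The sum was thus lowest on J 1c on the deposited scale, and it weighs the brightest markers most. Each of these markers was lowest on J 1c except Des and Mylpf. The highest signal of any probe set was lowest on J 1c too, at 41086. It was 231943 on J 1a, 184184 on NJ 1a and 125534 on NJ 1d. The part of these gaps between arrays in the results below was not tested. On the scale of the test the fibre markers had a median difference of 0.06.

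No gene of the 3 families passed the test between J and NJ. At a limma adjusted p under 0.05, 0 of the 12 probe sets were called, against 0 of all 9317 tested (0%). The lowest limma adjusted p among the 12 was 0.999. Of the 12, 8 had a higher mean in J and 4 a lower one, with a median difference of 0.31, while over all tested probe sets 49.3% had a higher mean in J and the median was −0.01. At an unadjusted limma p under 0.05, 1 of the 12 (Mef2a) was found, against 2.14% of all tested. The groups did not overlap, with J the higher, for 3 of the 12 (Myod1, Myog and Mef2a), against 13.6% of all tested. They did not overlap, with J the lower, for 2 (probe sets 104590_at and 104591_g_at of Mef2c), against 12.8%. The median of the 12 was −0.12 without array J 1c and −0.04 without NJ 1a, so its sign rests on single arrays. With 2 arrays in each group, the smallest two-sided p of an exact permutation test is 0.333.

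**Figure D1:**
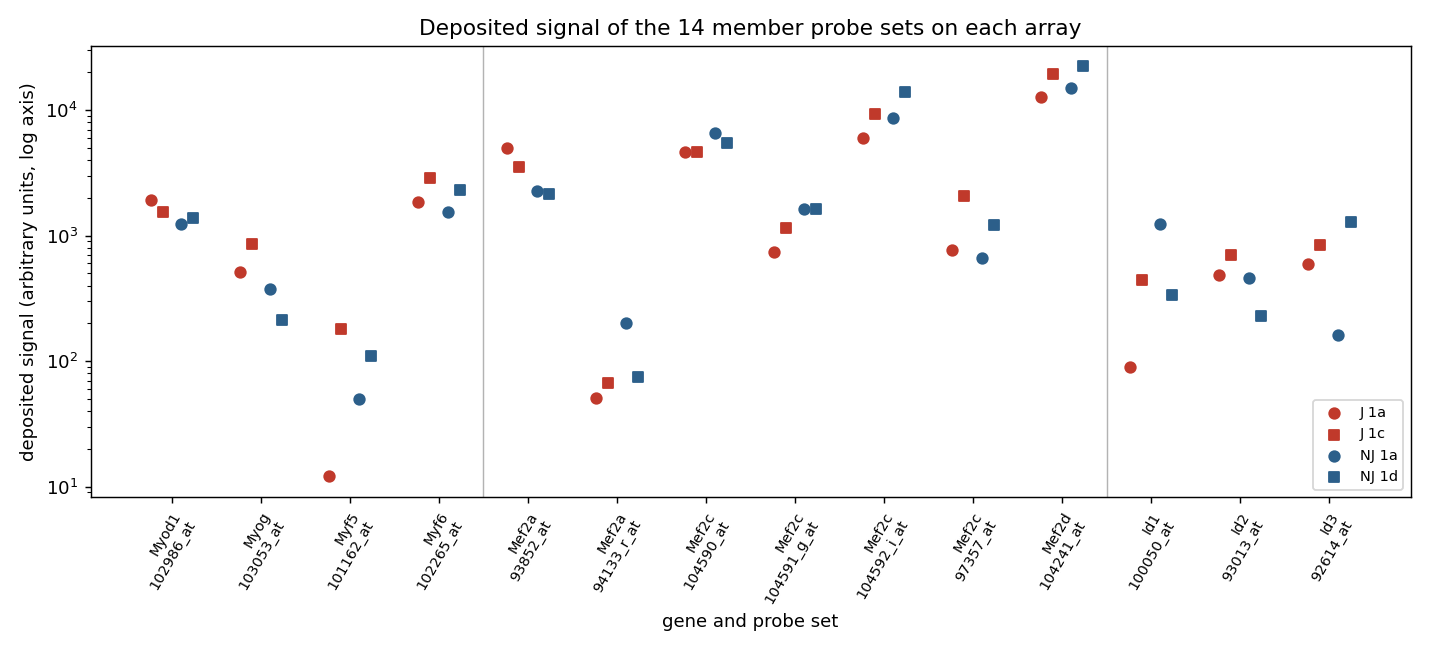
Deposited signal (log axis, arbitrary units) of each of the 14 probe sets on the J arrays (red) and the NJ arrays (blue), with circles for the 1a arrays and squares for 1c and 1d; grey lines part the MyoD family, the Mef2 family and the Id proteins. Both red points stand above both blue ones for Myod1, Myog, Id2 and probe set 93852_at of Mef2a, and Id1 spreads from 89.3 on J 1a to 1238 on NJ 1a.

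Signals of Myog and Myod1 were higher on each J array than on either NJ array, and those of Myf6 were not. Myog, or myogenin, the factor that drives the terminal steps of muscle differentiation, had signals of 509 and 856 on J 1a and J 1c, against 379 and 214 on NJ 1a and NJ 1d. The groups did not overlap, and the J arrays differed from each other by more than the NJ arrays did. The difference was 1.02 ± 0.71, or 2.02-fold, with a 95% interval of −0.57 to 2.60 (limma adjusted p = 0.999). It was 0.39 in the full-digit pair and 1.64 in the rounded pair. Where groups do not overlap, the sign must be the same in both number formats. Dropping single arrays gave 0.58 to 1.45.

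Myod1, which commits cells to the muscle lineage and in adult muscle is known as a gene of fast fibres, had signals of 1933 and 1533 on J 1a and J 1c, against 1232 and 1376 on NJ 1a and NJ 1d. The lower J value stood close to the higher NJ value. Its difference was 0.36 ± 0.43, with a 95% interval of −0.59 to 1.32 (limma adjusted p = 0.999). The difference was 0.65 in the full-digit pair and 0.08 in the rounded pair, so most of it came from the full-digit pair.

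Myf6, also called MRF4, is the member of the family known as the most abundant in adult fibres. It had signals of 1853 and 2885 on J 1a and J 1c, against 1537 and 2290 on NJ 1a and NJ 1d. The groups overlapped, and in each group the 1a array was the lower. The difference was 0.27 ± 0.42, with a 95% interval of −0.67 to 1.21 (limma adjusted p = 0.999). It was 0.25 in the full-digit pair and 0.28 in the rounded pair, which are closer to each other than those of any other probe set of the 14. With J 1c left out it was 0.001.

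Myf5, the member that marks satellite cells, the stem cells of muscle, was too dim to be tested. Its signals were 12.1 and 181 on J 1a and J 1c, against 49.5 and 110 on NJ 1a and NJ 1d. The J arrays lay on either side of both NJ arrays. The difference of −0.18 has no test, and it was −0.85 in the full-digit pair and 0.49 in the rounded pair. Of the 9 other satellite cell markers listed, 8 were on the array and 6 passed the filter on dim probe sets. The mean was higher in J for 3 of these and lower for 3 (median 0.02). The summed signal of the 8 was 4759 on J 1a and 4644 on J 1c, against 4618 on NJ 1a and 4681 on NJ 1d. This sum weighs the brightest markers most, and Itga7 was the brightest of the 8 on each array. The groups of 3 of the 6 stood apart (Itga7 with J higher, Cdh15 and Sdc3 with J lower), against 13.6% of all tested with J higher and 12.8% with J lower. Itga7, an integrin chain, had 1760 and 3078 on J 1a and J 1c, against 1689 and 1682 on NJ 1a and NJ 1d. Cdh15, the M-cadherin of satellite cells and a listed target of the MyoD family, had 115 and 196 on the J arrays, against 521 and 549 on the NJ arrays.

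Mef2a, Mef2c and Mef2d were split in direction. Mef2b, a further Mef2 gene held in the list of upstream regulators, differed by 0.02 ± 0.39. Mef2a had the smallest unadjusted p of the 12 probe sets, at its brighter probe set 93852_at, and ranked 141st of 9317. Its signals were 5020 and 3510 on J 1a and J 1c, against 2259 and 2158 on NJ 1a and NJ 1d. The groups stood apart, and the NJ arrays were nearly equal. The difference was 0.94 ± 0.39, or 1.92-fold, with a 95% interval of 0.06 to 1.82 before adjustment (limma unadjusted p = 0.039, adjusted p = 0.999). It was larger than the gap between the arrays within either group, which held for 3 of the 12 probe sets and for 15.3% of all tested. It was 1.21 in the full-digit pair and 0.67 in the rounded pair, and 0.61 to 1.27 with each array left out.

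The other probe set of Mef2a, 94133_r_at, went the opposite way and was too dim to be tested. Its signals were 51.1 and 66.5 on J 1a and J 1c, against 200 and 75.2 on NJ 1a and NJ 1d. Both J values lay below both NJ values, but 66.5 and 75.2 are close. The difference was −0.89 with no test. The suffix r in these probe set names marks a set for which some rules of probe selection were dropped by the manufacturer. The Mef2a result thus rests on 1 probe set.

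Mef2c, a Mef2 gene known for roles in muscle and heart development and in the fibre's response to activity, had 4 probe sets that did not all run the same way. At 104591_g_at the signals were 733 and 1152 on J 1a and J 1c, against 1621 and 1636 on NJ 1a and NJ 1d. Both J arrays were lower, and the NJ arrays differed little. The difference was −0.88 ± 0.47, with a 95% interval of −1.93 to 0.18 (limma adjusted p = 0.999), and it was −1.22 in the full-digit pair and −0.53 in the rounded pair. At 104590_at the signals were 4630 and 4677 on the J arrays, against 6534 and 5432 on the NJ arrays. The groups again did not overlap, with a difference of −0.31 ± 0.36, at −0.46 in the full-digit pair and −0.15 in the rounded pair. Without NJ 1a it was −0.08 and without NJ 1d −0.53.

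At 104592_i_at, another probe set of Mef2c, the signals were 5956 and 9267 on J 1a and J 1c, against 8664 and 13879 on NJ 1a and NJ 1d. The groups overlapped, but within each number format the J array was the lower. Its difference was −0.40 ± 0.39, at −0.46 in the full-digit pair and −0.35 in the rounded pair. At 97357_at the signals were 767 and 2072 on J 1a and J 1c, against 668 and 1212 on NJ 1a and NJ 1d. Here the J array was the higher in each format, and the difference was 0.42 ± 0.61. The first 3 probe sets carry neighbouring numbers and 2 of them the same source sequence in the platform's gene table, so they may not be independent measures of the gene. Without J 1c the difference at 97357_at was −0.28, and without NJ 1a it was −0.05.

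Mef2d, a Mef2 gene expressed widely in adult tissues, had signals of 12615 and 19348 on J 1a and J 1c, against 14982 and 22275 on NJ 1a and NJ 1d. On the signal scale the J array was the lower within each number format. The difference was 0.16 ± 0.48 after quantile normalisation, but −0.23 on the deposited scale and −0.29 with each array centred on its median, so its direction depends on the scaling. Its 95% interval in limma was −0.91 to 1.23.

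**Figure D2:**
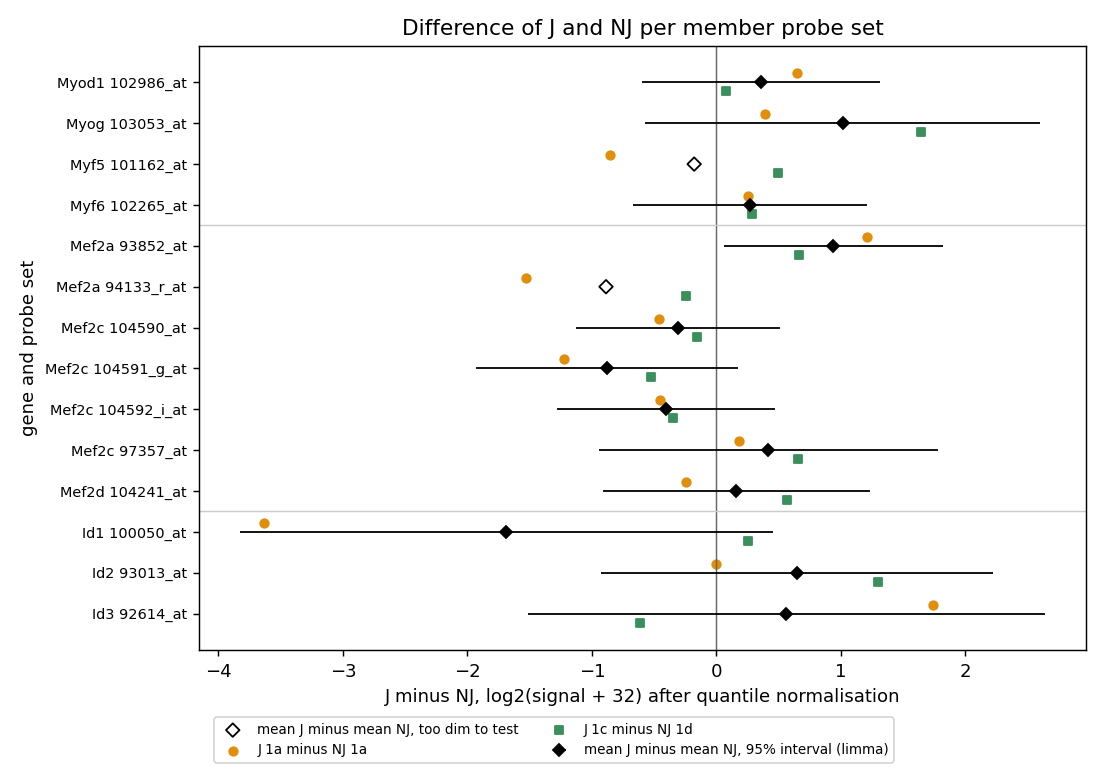
J minus NJ in quantile-normalised log2(signal + 32) for each probe set, with black diamonds for the difference of the group means and its 95% interval from limma, open diamonds where the probe set was too dim to test, orange circles for J 1a minus NJ 1a and green squares for J 1c minus NJ 1d. The interval leaves out 0 for Mef2a 93852_at only (0.06 to 1.82, before adjustment), and the Id1 pairs stand at −3.63 and 0.26.

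For each Id gene, the arrays of at least 1 group differed from each other by more than the group means did. Id1, an inhibitor known as a target of BMP signals and abundant in endothelium, had signals of 89.3 and 441 on J 1a and J 1c, against 1238 and 337 on NJ 1a and NJ 1d. It was lowest on one 1a array and highest on the other, with J 1c and NJ 1d between them. The difference of −1.69 ± 0.95 was the largest in size among the 12 tested probe sets, with a 95% interval of −3.83 to 0.45 (limma adjusted p = 0.999). It was −3.63 in the full-digit pair and 0.26 in the rounded pair, and −2.82 to −0.55 when single arrays were dropped.

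Endothelial markers were measured beside Id1, with 9 of 10 listed genes on the array, 8 of them bright enough to test and none at 0. Their summed signal was 13123 and 9512 on J 1a and J 1c, against 10986 and 10527 on NJ 1a and NJ 1d. Single markers did not follow 1 pattern over the arrays. Of the 8 tested, 3 had a higher mean in J and 5 a lower one, with a median of −0.13. Kdr, a receptor for VEGF, had 129 on J 1a and 1480 on J 1c, against 987 and 1331 on NJ 1a and NJ 1d, while Cdh5, the cadherin of endothelial junctions, had 1962 and 1406 on the J arrays, against 2145 and 1505 on the NJ arrays. Vwf, the von Willebrand factor, had 1859 and 987 on J 1a and J 1c, against 197 and 634 on NJ 1a and NJ 1d, so it was highest on J 1a, where Kdr and Id1 were lowest. Vwf had the smallest p of the list, with a difference of 1.87 ± 0.72 (limma unadjusted p = 0.028, adjusted p = 0.999). The part of endothelium in the Id1 values was not tested.

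Id2, an inhibitor also made in muscle, had signals of 482 and 698 on J 1a and J 1c, against 461 and 229 on NJ 1a and NJ 1d. Both J signals were above both NJ signals, but after normalisation the full-digit pair was equal to within 0.001 and the groups overlapped. The difference was 0.65 ± 0.70, with a 95% interval of −0.93 to 2.22 (limma adjusted p = 0.999). All of it came from the rounded pair, which differed by 1.30.

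Id3, the remaining inhibitor, had signals of 594 and 842 on J 1a and J 1c, against 163 and 1272 on NJ 1a and NJ 1d. Both J values lay between the NJ values. The difference was 0.56 ± 0.92, with a 95% interval of −1.52 to 2.64 (limma adjusted p = 0.999), at 1.74 in the full-digit pair and −0.61 in the rounded pair. Without NJ 1a the difference was −0.92, and without NJ 1d it was 2.04, so its direction rests on which NJ array is kept.

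Across the 12 tested probe sets the sign was the same in both number formats for 8, against 49.3% of all tested probe sets. The 4 others were Mef2d and all 3 Id genes. Id2 is among them only through a full-digit difference of −0.00067, and its deposited signal was higher in J within both pairs. All 3 tested MyoD family probe sets and 5 of the 6 tested Mef2 probe sets kept theirs. The median of the within-group standard deviation was 0.41 over the 12 probe sets and 0.57 over all tested. A fit with a term for number format, which leaves 1 residual degree of freedom, called 0 of the 12 and 0.0859% of all tested. Its lowest limma adjusted p among the 12 was 0.598, for Mef2a. At an unadjusted limma p under 0.05 it found 2 of the 12 (Mef2a and Id1), against 5.96% of all tested.

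**Figure D3:**
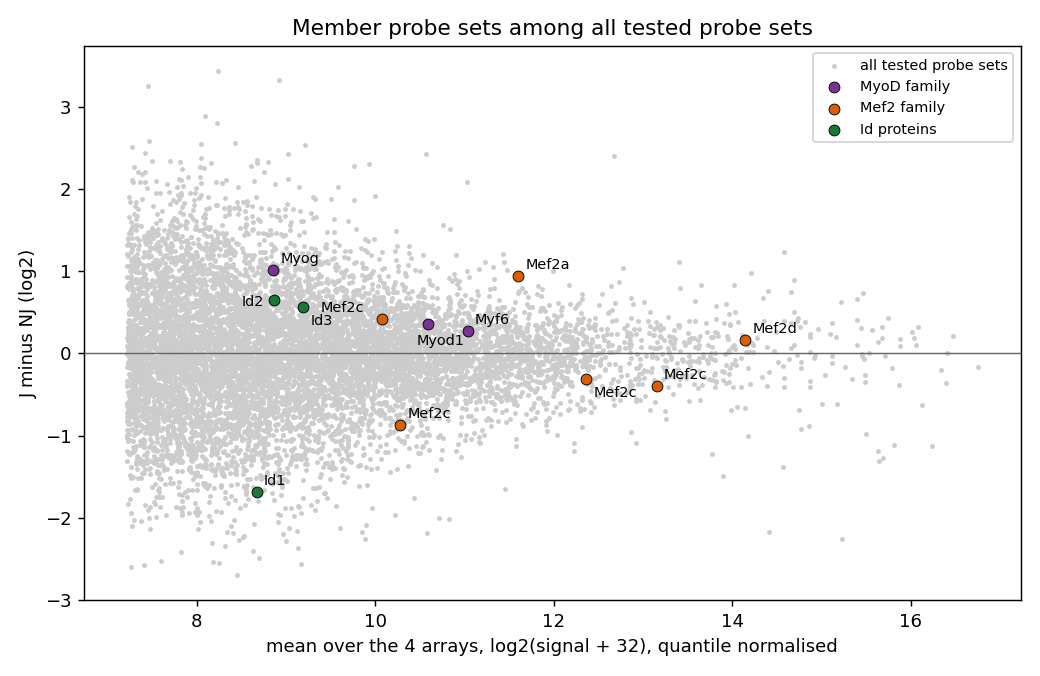
J minus NJ (log2) against the mean over the 4 arrays for all 9317 tested probe sets (grey) and for the 12 tested probe sets of the MyoD family (purple), the Mef2 family (orange) and the Id proteins (green). Mef2a at 0.94 stands near the edge of the grey cloud at its brightness, and Id1 at −1.69 lies among other probe sets of its brightness with differences of that size.

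Partners, regulators and targets of these factors were described from 8 lists that hold 125 gene names, of which 100 had a probe set. At the 25th percentile filter 86 of them were tested, at the brightest probe set of each. At a limma adjusted p under 0.05, 0 of the 86 were called, against 0% of all tested. Of the 86, 42 had a higher mean in J and 44 a lower one, with a median of −0.04. At an unadjusted limma p under 0.05 there were 2 (Nog and Ankrd1), against 2.14% of all tested. The groups stood apart with J higher for 11 and with J lower for 11, against 13.6% and 12.8% of all tested.

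E proteins and Id4, the helix-loop-helix partners, had means that were higher in J for 3 members and lower for 1 (median 0.25). Id4, a further Id protein, had signals of 474 and 469 on the J arrays, against 127 and 312 on the NJ arrays, a difference of 1.05 ± 0.81. It is the Id gene whose groups stood apart, which fixes the same sign in both formats. The difference was 1.67 in the full-digit pair and 0.42 in the rounded pair. Tcf12, which encodes the E protein HEB, had 372 on J 1a and 2341 on J 1c, against 1343 and 1434 on NJ 1a and NJ 1d, so the NJ arrays lay between the J arrays. Its difference was −0.68 ± 0.77, and that of Tcf3, which encodes E12 and E47, was 0.39 ± 0.66.

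Repressors of the MyoD family had 5 members higher and 6 lower of 11 tested, with a median of −0.05. Bhlhe40, a helix-loop-helix repressor also called Stra13, had 1841 and 1197 on the J arrays, against 987 and 907 on the NJ arrays, a difference of 0.61 ± 0.47 with groups that did not overlap. Snai2, a zinc finger repressor, differed by 0.59 ± 0.91 and Zeb1, another, by −0.33 ± 0.41, both with overlapping groups. Of the 8 names listed as class II deacetylases and Mef2 corepressors, 2 had a probe set, Hdac5 at 0.21 ± 0.48 and Hdac7 at −0.19 ± 0.68.

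Activators and coactivators of Mef2 had 5 members higher and 7 lower of 12 tested, with a median of −0.14. Crebbp, an acetyltransferase that serves as a coactivator, differed by 0.54 ± 0.47, Smarca4, the ATPase of a chromatin remodelling complex, by −0.50 ± 0.48 and Kat2b, the acetyltransferase PCAF, by −0.99 ± 0.88. Kat2b had 541 on J 1a and 5573 on J 1c, against 2600 and 4390 on NJ 1a and NJ 1d, so J 1a alone was far lower. Upstream regulators of the MyoD family had 5 higher and 6 lower of 11 tested, with a median of −0.06. Meox2, a homeobox factor of early muscle, differed by −1.26 ± 1.18, Eya2, a coactivator of homeobox factors, by −0.93 ± 0.89 and Foxk1, a forkhead factor of satellite cells, by −0.62 ± 0.78. Meox2 had 15.3 on J 1a and 294 to 532 on the other arrays.

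BMP inputs of the Id genes had 7 higher and 7 lower of 14 tested, with a median of 0.01. Nog, or noggin, the secreted antagonist that binds BMPs, had signals of 968 and 467 on the J arrays, against 117 and 223 on the NJ arrays. Its groups stood apart, with a difference of 1.85 ± 0.79 (limma unadjusted p = 0.044, adjusted p = 0.999), at 2.87 in the full-digit pair and 0.83 in the rounded pair. The BMP receptors Bmpr1b and Bmpr2 differed by −1.11 ± 0.77 and −1.12 ± 0.86. Bmpr2 had 132 on J 1a and 473 on J 1c, against 831 and 336 on NJ 1a and NJ 1d. It was lowest on J 1a and highest on NJ 1a, as were Id1 and genes of other lists, Eya2, Cdkn1a, Zeb1, S100b and Pmp22 among them. Over all tested probe sets 31.8% were lowest on J 1a and 26.7% were highest on NJ 1a. These shares are separate, and the share of probe sets with both traits was not counted. The part of BMP inputs in the Id1 values was not tested.

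Muscle targets of the MyoD and Mef2 proteins, contractile and metabolic genes of the fibre with receptor subunits and cell cycle inhibitors, had 14 members higher and 15 lower of 29 tested, with a median of −0.07. The groups stood apart with J higher for 5 of the 29 and with J lower for 5, against 13.6% and 12.8% of all tested. Besides Cdh15, at −1.69 ± 0.78, the members with the smallest p were Chrna1, the alpha subunit of the acetylcholine receptor, at 2.36 ± 1.05, and Cdkn1a, the cell cycle inhibitor p21, at −1.23 ± 0.74. Cdkn1a had 203 and 592 on the J arrays, against 943 and 671 on the NJ arrays. These 3 genes, all listed as targets, thus differed in opposite directions, with groups that did not overlap.

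Denervation genes downstream of myogenin had 5 members higher and 2 lower of 7 tested, with a median of 0.81, the highest of the 8 lists. The median was 1.28 in the full-digit pair and 0.35 in the rounded pair. Ankrd1, a stress-responsive ankyrin repeat protein, had 1351 and 3018 on the J arrays, against 195 and 1298 on the NJ arrays, a difference of 1.92 ± 0.83 (limma unadjusted p = 0.046, adjusted p = 0.999). The groups stood apart with J higher for 3 of the 7 genes and with J lower for 1, against 13.6% and 12.8% of all tested. Of its 7 tested genes 4 also stand in the target list (Chrna1, Cdkn1a, Chrng and Ncam1), and they are the 4 whose groups stood apart. Ncam1, at 0.81, is itself the median. The list was drawn up with earlier values of Chrna1, Ncam1 and Ankrd1 known, so its median is not independent evidence of a direction.

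**Figure D4:**
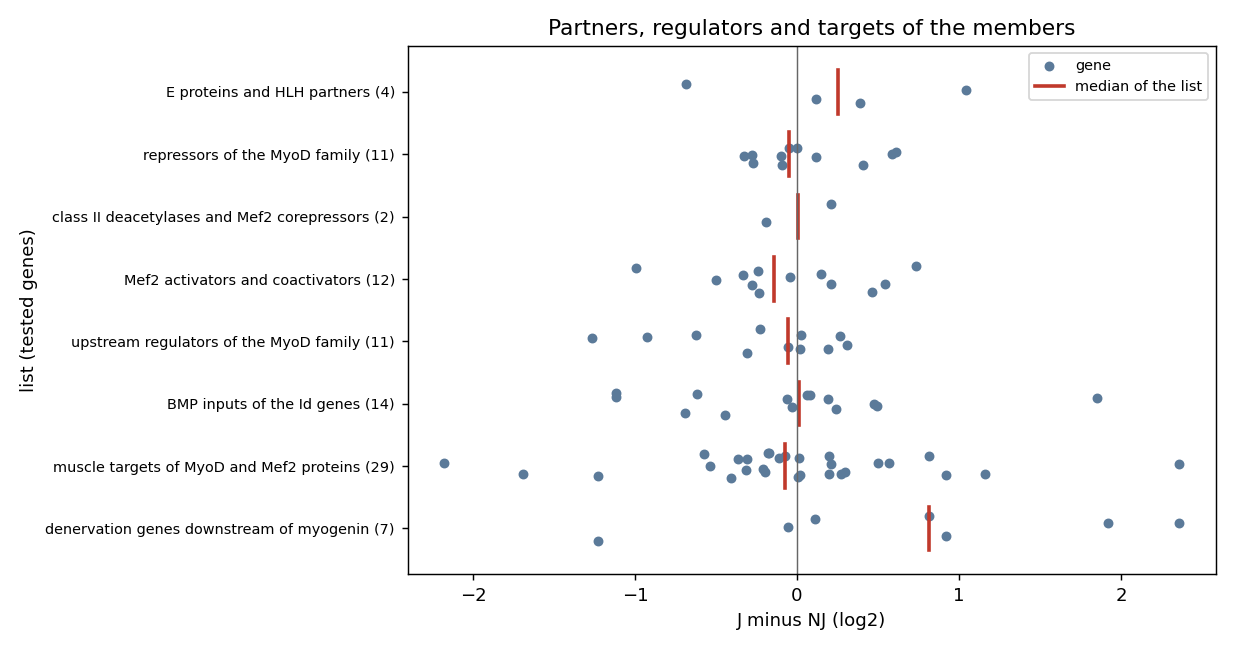
J minus NJ (log2) of each tested gene (blue points, spread vertically for legibility) in 8 lists of partners, regulators and targets, with the median of each list as a red bar and the number of tested genes in brackets. The medians stand between −0.14 and 0.25 except for the denervation list, at 0.81 over 7 genes.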

How the data were processed

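Expression arrays of mouse skeletal muscle RNA were used, 2 coded J and 2 NJ in their titles. The deposited table holds an intensity for each probe set on each array, made by software not given in the sources used here. After trimming, the column means (2% taken off at each end) lay between 800.5 and 800.6, so the arrays carry a common scaling.

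Intensities were taken as log2(value + 32) and quantile normalised, since array medians differed by 0.38, more than the limit of 0.1. The 66 control probe sets entered the scaling but not the tests. Probe sets above the 25th percentile of the mean (9317 of 12422) were tested by lmFit and trended eBayes of limma 3.58.1 under R 4.3.3 (residual degrees of freedom: 2), with Benjamini-Hochberg adjustment over all of them. The number of arrays limits the precision.

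Names come from the platform's gene table, in which 10833 probe sets had 1 symbol, 396 several and 1193 none. All 14 probe sets of the families carried gene IDs of the same genes in the RefSeq table of GRCm38.p6. The members, the 8 network lists and the marker lists were chosen with earlier results of these data known. Named are all member probe sets and, of each network list, up to 3 genes with the smallest unadjusted p. Mef2b is named as a further Mef2 gene, after its value was seen, and some list genes only as having no probe set. Marker genes are named beside the results they bear on and were chosen after their values were seen. No genes were ranked by likeness of pattern over only 4 arrays. The scripts were tested on simulated data. Alternatives were other scalings, pseudocounts of 1 and 100, other filters, no intensity trend, a number-format term and leaving out each array. Plots used matplotlib 3.10.9 (Python 3.11.15).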

Additional observations from a re-analysis of the deposited data

How the results depend on the processing

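No analysis paired by replicate label was possible because the groups share only the label 1a. The number-format term, which splits each group by the deposited digits, coincides with that label. It acts as a pairing of J 1a with NJ 1a and of J 1c with NJ 1d, though the labels do not mark the latter as a pair. With it limma called 8 of all tested probe sets (4 higher and 4 lower) and 1 gene of the network lists, Tnnc2 (lower in J, named after its value was seen), against 0 for both without the term, and 0 member probe sets either way. Tnnc2 had signals of 145820 on J 1a and 1301 on J 1c, against 120147 and 29568 on NJ 1a and NJ 1d. Its groups overlapped, and its difference was −0.07 in the full-digit pair and −4.28 in the rounded pair. All other alternatives, each left-out array included, called 0 in all 3 counts (0 to 0 with each array left out). Over all tested probe sets the limma counts at an unadjusted p under 0.05 were 117 higher and 82 lower, 302 and 580 without J 1c, and 75 and 30 without NJ 1a. The median over the member probe sets was between −0.12 and 0.57 when single arrays were dropped, falling below 0 without J 1c and without NJ 1a. It was 0.35 on the deposited scale, 0.28 with median centring, 0.09 within the full-digit arrays and 0.27 within the rounded ones.

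Among the 14 probe sets, the sign turned for Mef2d on the deposited scale (−0.23), with median centring (−0.29) and within the full-digit arrays (−0.25). Within the full-digit arrays Id2 was at −0.00067, and within the rounded arrays Myf5 was at 0.49, Id1 at 0.26 and Id3 at −0.61. When single arrays were dropped, Mef2d lay between −0.43 and 0.75, Myf5 from −1.46 to 1.11, the Mef2c probe set 97357_at from −0.28 to 1.12 and Id3 from −0.92 to 2.04. The cause was not tested. No sign turned with the other pseudocounts, filters, variance prior or the number-format term. Scaling moved the median of all tested probe sets by at most 0.03.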

Other observations

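Of the 12 tested member probe sets, 4 were lowest on J 1a and 1 on J 1c, against 4 on NJ 1a and 3 on NJ 1d. Of the 86 tested network genes, 25.6% were lowest on J 1a and 32.6% on J 1c, against 22.1% on NJ 1a and 19.8% on NJ 1d. Over all tested probe sets the shares were 31.8% and 21.3%, against 25.5% and 21.5%. The muscle targets had a summed signal of 1067349 on J 1a and 265273 on J 1c, against 856370 on NJ 1a and 639943 on NJ 1d. The sum was lowest on J 1c on the deposited scale, as for the fibre markers, and J 1c also had the lowest top signal. Schwann cell markers, the cells that wrap the motor axon, had 0 members higher and 4 lower in J of 4 tested (median −0.40). Smooth muscle and pericyte markers had 6 higher and 0 lower of 6 tested (median 0.54), and fibroblast markers 6 higher and 2 lower of 8 (median 0.36). Over all tested probe sets 49.3% had a higher mean in J. The Schwann cell median was −1.12 in the full-digit pair and −0.06 in the rounded pair. Those of smooth muscle and pericytes were 0.03 and 0.78, and those of fibroblasts 0.57 and 0.22. None of these marker genes passed limma at an adjusted p under 0.05. At an unadjusted limma p under 0.05 there was 1, a fibroblast marker, against 2.14% of all tested. Immune cell markers had 3 higher and 3 lower of 6 tested, with a median of −0.33. It was −0.81 in the full-digit pair and 0.19 in the rounded pair. Of these markers 1 was found at an unadjusted limma p under 0.05, against the same 2.14%.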
